A study of Rattus norvegicus with 3 samples.

Results

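Cytochrome P450 genes were represented by 56 of the 5690 probes on a spotted rat oligonucleotide array, each probe printed on 2 spots. A probe was counted as a P450 probe when its symbol or its description on the array named a cytochrome P450, without regard to its measured values. By family number, 31 probes belonged to families 1 to 3, 9 to family 4 and 14 to sterol, steroid and other families, and 2 could not be placed. The study hybridised liver RNA of male rats on 3 arrays with 2 channels each, 1 array per comparison. The tested animals were spontaneously hypertensive rats (SHR), an inbred model of genetic hypertension, aged 3 months or 1 month, and the controls were normotensive Wistar Kyoto rats (WKY) of the same age, whose tissue was pooled. The first array set SHR against WKY at 3 months, another set SHR against WKY at 1 month, and the last set SHR at 3 months against SHR at 1 month. The number of animals behind each RNA was not given in the labels, no treatment or engineered allele was named, and without replicate arrays no p-value could be computed.

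P450 enzymes are haem proteins that add oxygen to their substrates with electrons from a reductase. In liver, families 1 to 3 mainly clear drugs and foreign compounds and also hydroxylate steroids, family 4 hydroxylates fatty acids and eicosanoids, and other families make bile acids, sterols and steroid hormones. In adult rat liver several family 2 and 3 enzymes differ between the sexes, because males secrete growth hormone in pulses and females more continuously: Cyp2c11, Cyp2c13, Cyp2a2, Cyp3a2 and Cyp3a18 are known as male-predominant, and Cyp2c12, Cyp2c7 and Cyp2a1 as female-predominant.

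The Cyp2c genes carried several of the values described below. In the RefSeq table Cyp2c11, Cyp2c7, Cyp2c12, Cyp2c13, Cyp2c22 and Cyp2c23 followed one another among those chromosome 1 P450 genes that the array carried. Promoter windows from 250 bases before to 50 bases after the gene start were taken from RefSeq (build GRCr8) for 36 of the 48 distinct member symbols. The windows of Cyp2c7 (chr1:247966144-247966443, plus strand), Cyp2c12 (chr1:248676985-248677284, minus strand), Cyp2c13 (chr1:248787139-248787438, minus strand) and Cyp2c11 (chr1:246174966-246175265, plus strand) are shown to let the female-predominant and male-predominant members of the cluster be read side by side. Capitals mark the TATA box TATAAA and ATTGAT, a core bound by the liver factor Onecut1 (HNF6), on either strand.
Cyp2c7: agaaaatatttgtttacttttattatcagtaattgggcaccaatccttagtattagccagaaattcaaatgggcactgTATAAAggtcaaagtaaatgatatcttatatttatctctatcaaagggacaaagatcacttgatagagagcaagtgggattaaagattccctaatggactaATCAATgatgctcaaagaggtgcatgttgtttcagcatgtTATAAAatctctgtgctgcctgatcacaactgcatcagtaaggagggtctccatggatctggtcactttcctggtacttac
Cyp2c12: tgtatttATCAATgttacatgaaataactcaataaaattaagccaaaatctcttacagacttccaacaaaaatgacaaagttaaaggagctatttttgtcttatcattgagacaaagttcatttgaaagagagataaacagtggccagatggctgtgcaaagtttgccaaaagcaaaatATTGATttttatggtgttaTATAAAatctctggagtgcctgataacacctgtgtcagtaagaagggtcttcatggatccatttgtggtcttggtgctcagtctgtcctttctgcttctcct
Cyp2c13: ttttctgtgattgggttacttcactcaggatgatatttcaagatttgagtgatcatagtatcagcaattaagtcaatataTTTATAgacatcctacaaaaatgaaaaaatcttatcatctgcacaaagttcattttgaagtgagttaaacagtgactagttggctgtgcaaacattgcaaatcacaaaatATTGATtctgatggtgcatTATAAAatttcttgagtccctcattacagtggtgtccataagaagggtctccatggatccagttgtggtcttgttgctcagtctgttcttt
Cyp2c11: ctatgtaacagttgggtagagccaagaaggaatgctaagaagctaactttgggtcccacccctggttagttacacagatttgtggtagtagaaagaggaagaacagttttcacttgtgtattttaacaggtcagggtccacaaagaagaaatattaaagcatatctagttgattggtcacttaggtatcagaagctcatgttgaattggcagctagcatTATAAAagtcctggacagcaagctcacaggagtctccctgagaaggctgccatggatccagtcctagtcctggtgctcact

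All 4 windows held TATAAA, which began 31 bases before the gene start in both Cyp2c7 and Cyp2c11, 52 before it in Cyp2c12 and 41 before it in Cyp2c13. Further TATAAA matches lay 172 bases before the start in Cyp2c7 and, as the reverse complement, 170 before it in Cyp2c13. ATTGAT lay 71 bases before the start in Cyp2c7 (as its reverse complement) and in Cyp2c12, which held another reverse complement 243 bases before its start, and 60 bases before it in Cyp2c13, and these letters were not in the Cyp2c11 window. In all, 8 motifs were searched on both strands, and the pair in capitals was chosen after the matches were seen. The shares of all promoters are counted by window and the P450 numbers by gene, so the units differ where a gene has several windows. TATAAA stood in 14.2% of all 33469 promoter windows and in 12 of the 36 P450 genes. ATTGAT stood in 8.06% of all windows and in 5 of the P450 genes, namely Cyp1a2, Cyp2c7, Cyp2c12, Cyp2c13 and Cyp4f1. The nuclear receptor motif AGGTCA stood in 16.2% of all windows and 11 P450 genes, the STAT motif TTCNNNGAA in 8.87% and 4, and the aryl hydrocarbon receptor core GCGTG in 29.7% and 8. The C/EBP motif TTGCNNAA stood in 10.6% of all windows and 13 P450 genes, the HNF1 motif GTTAAT in 7.45% and 4, and the FOXA motif TGTTTAC in 3.78% and 4. A match of letters is a description of the window and does not show binding.

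Each value below is a log2 ratio of the second channel over the first (SHR over WKY, or SHR at 3 months over SHR at 1 month) after background correction and intensity-dependent normalisation within the array, averaged over the spots of a probe that stood above background. The pooled SD between the spots of a probe was 0.05 at 3 months, 0.06 at 1 month and 0.05 on the SHR age array, and covers printing and hybridisation within an array only. No P450 probe had spots more than 0.3 apart, and the widest pair was that of Cyp2c23 at 3 months, 0.25 apart. The second channel was dimmer on every array, with median raw intensities of 2162, 2270 and 1448 against 3460, 3405 and 2405 in the first channel (3-month, 1-month and SHR age array in turn). The strain arrays shared one dye orientation, so dye and strain cannot be told apart in any single ratio. On the SHR age array the file header names the second column SHR at 3 months, whereas the labels put the dye used for SHR elsewhere on the 1-month RNA. Its ratios follow the header here, and every sign on that array turns if the header is wrong. A patch of 196 spots with bright local background on the 3-month array lifted the corrected intensity of empty spots to a median of 447, against 97.2 when those spots were left out, 57.7 on the 1-month array and 54.3 on the SHR age array. Adding such a floor to both channels draws the ratios of dim probes towards 0, and the 3-month value without those spots is given beside several of them.

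All spots of 53, 54 and 54 of the 56 P450 probes stood above local background by 2 SD in both channels (3-month, 1-month and SHR age array in turn), no P450 probe was at background on every spot, and none was saturated. Of the hepatocyte markers, 18 of 18 printed genes, among them albumin and transthyretin, were above background in both channels of each array. The hepatocyte list had medians of −0.04, −0.07 and −0.15, with albumin (Alb) at −1.01 at 3 months and −1.10 in the age comparison, where transferrin (Tf) was at −0.99. Markers of other tissues were above background as well, 4 of 4 for kidney and 4 of 4 for brain on each array, so that signal on these arrays did not by itself mark a liver gene. The NK and T cell markers had medians of −0.12, −0.23 and −0.19 on the 3 arrays in the same order, and the stellate and matrix markers medians of −0.20, −0.13 and −0.30. Their part in the P450 ratios was not tested. In such bulk RNA, fewer cells of a type and less RNA per cell cannot be told apart.

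At 3 months 1 of the 56 P450 probes, Cyp2c7, was at least 1.5-fold lower in SHR, beside 1.49% of all 5651 probes, and 0 were at least 1.5-fold higher, beside 0.584%. At least 2-fold lower were 0 P450 probes at that age, beside 0.0708% of all probes. Without the spots of bright background 3 of 55 P450 probes (Cyp2c7, Cyp1a1 and the dimmer of the pair of Cyp2c12 probes) were at least 1.5-fold lower in SHR, beside 3.37%, and 0 higher, beside 0.771%. At 1 month 2 P450 probes (Cyp1a1 and Cyp2c7) were at least 1.5-fold lower in SHR, beside 2.41% of all probes, and 0 were higher, beside 0.194%. Cyp1a1 was the 1 probe at least 2-fold lower at that age, beside 0.387%. The share of P450 probes past 1.5-fold in the strain comparisons, 1.79% at 3 months and 3.57% at 1 month, was thus near that of all probes. On the SHR age array, in the header's direction, 7 P450 probes (12.5%) were at least 1.5-fold lower at 3 months than at 1 month, beside 5.42% of all probes. On that array 0 were higher, beside 2.06%. The probes at least 1.5-fold lower there were Cyp1a1, the dimmer Cyp2c12 probe, P450 IID3, Cyp2c7, Cyp19a1, Cyp2b21 and Cyp4b1, and Cyp1a1 was the 1 probe at least 2-fold lower, beside 0.915%. In the second channel of the strain arrays, raw SHR readings of Cyp2c7 were 845 at 3 months and 701 at 1 month. Those of Cyp1a1 were 73.5 and 76.0, and the other named probes read lower at 3 months. These readings come from different arrays, and the part of the dye was not tested. With centring on the array median in place of the intensity-dependent normalisation, at least 1.5-fold lower and higher were 1 and 2 P450 probes at 3 months, beside 2.35% and 7.68% of all probes, and 7 and 5 at 1 month, beside 7.42% and 10.5%. In the age comparison they were 13 and 7, beside 10.1% and 15.4%. Under that centring 13 of 56 P450 probes at 3 months, 13 at 1 month and 9 on the SHR age array took the other sign.

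Families 1 to 3 had medians of −0.16 at 3 months, −0.08 at 1 month and −0.15 on the SHR age array, with 23, 19 and 23 of 31 probes below 0, or 74.2%, 61.3% and 74.2%, beside 53.0%, 52.4% and 51.3% of all probes. Family 4 had medians of 0.02, 0.03 and −0.13, of which those at 1 month and on the SHR age array took the other sign under median centring. Sterol, steroid and other families had medians of −0.03, −0.09 and −0.12. Over all probes the median was −0.01 on each array, and over all P450 probes it was −0.05, −0.06 and −0.12. The lower and upper quartiles of all probes were −0.15 and 0.10 at 3 months, −0.15 and 0.11 at 1 month and −0.23 and 0.17 on the age array of SHR. At 3 months the median of families 1 to 3 lay just below its lower quartile, and the other medians of these 3 groups lay between the quartiles.

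**Figure D1:**
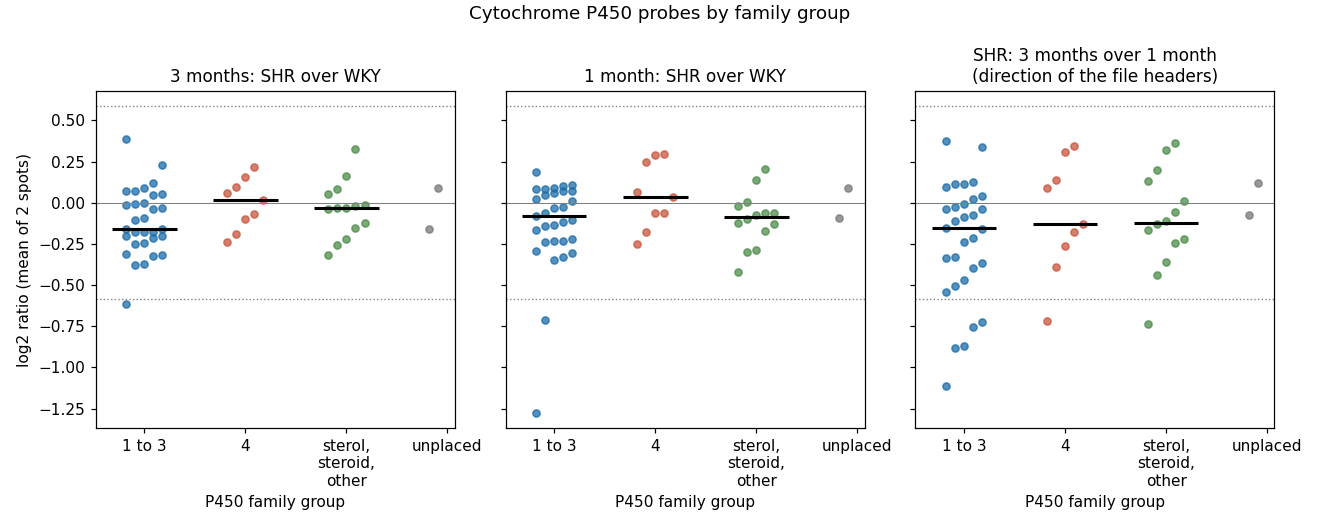
Log2 ratio of each P450 probe (vertical axis) by family group (horizontal axis) on the 3-month, 1-month and SHR age arrays; points are probes, black bars are group medians and dotted lines mark 1.5-fold. Families 1 to 3 had medians of −0.16, −0.08 and −0.15, and the points past the lower dotted line numbered 1, 2 and 7.

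Cyp1a1, which oxidises polycyclic aromatic compounds and is the classical target of the aryl hydrocarbon receptor, was the P450 probe with the lowest ratio on the 1-month array and, in the header's direction, on the SHR age array. It was a dim probe. At 3 months its raw intensities on the 2 spots were 73.6 and 73.3 in SHR, against 257 and 250 in WKY, over local backgrounds of 44.5 and 37.0. At 1 month they were 79.2 and 72.9 in SHR, against 307 and 299 in WKY. In the age comparison they were 67.6 and 67.4 in SHR at 3 months, against 256 and 238 in SHR at 1 month. Every second-channel spot was thus below every first-channel spot, by more than the gap between the channels' array medians. The log2 ratio was −1.28 at 1 month and −1.11 on the SHR age array. At 3 months it was −0.18, but −0.79 without the spots of bright background, −1.62 with plain subtraction of the background and 0.14 with median centring. The same labelled RNA, SHR at 1 month, read 76.0 in the second channel of its strain array and 247 in the first channel of the SHR age array, while SHR at 3 months read 73.5 and 67.5 in the second channel of both its arrays. The identity of that first-channel RNA rests on the header, WKY was never read in the second channel, and the part of the dye in these ratios was not tested. Cyp1a2, which metabolises caffeine and aromatic amines and is a bright probe, had log2 ratios of 0.12, −0.08 and −0.09. Cyp1b1, which hydroxylates oestradiol, had log2 ratios of −0.37 at 3 months (spots at −0.47 and −0.27), −0.04 at 1 month and −0.50 on the SHR age array. Without the spots of bright background its 3-month value was −0.45.

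Cyp2c7, a female-predominant enzyme that also hydroxylates retinoic acid, was the P450 probe past 1.5-fold on all 3 arrays. At 3 months its raw intensities were 782 and 908 in SHR, against 2232 and 2586 in WKY. At 1 month they were 634 and 768 in SHR, against 1681 and 2102 in WKY. For SHR alone they were 533 and 541 in SHR at 3 months, against 1631 and 1625 in SHR at 1 month. The spots of the channels did not overlap on any array, but the second channel was dimmer throughout, so raw separation alone does not mark a difference. Cyp2b3 at 3 months was separated too, at 1122 and 1216 in SHR against 1816 and 1918 in WKY, with a log2 ratio of 0.05. The share of all probes so separated was not counted. The log2 ratio of Cyp2c7 was −0.61 at 3 months (−0.74 without the spots of bright background), −0.71 at 1 month and −0.76 on the SHR age array. It kept its sign in every processing tried on the strain arrays, between −0.87 and −0.60 at 3 months and between −0.92 and −0.67 at 1 month. Here too the RNA labelled SHR at 1 month read 701 in the second channel of its strain array and 1628 in the first channel that the header gives it on the SHR age array, and the part of the dye was not tested.

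**Figure D2:**
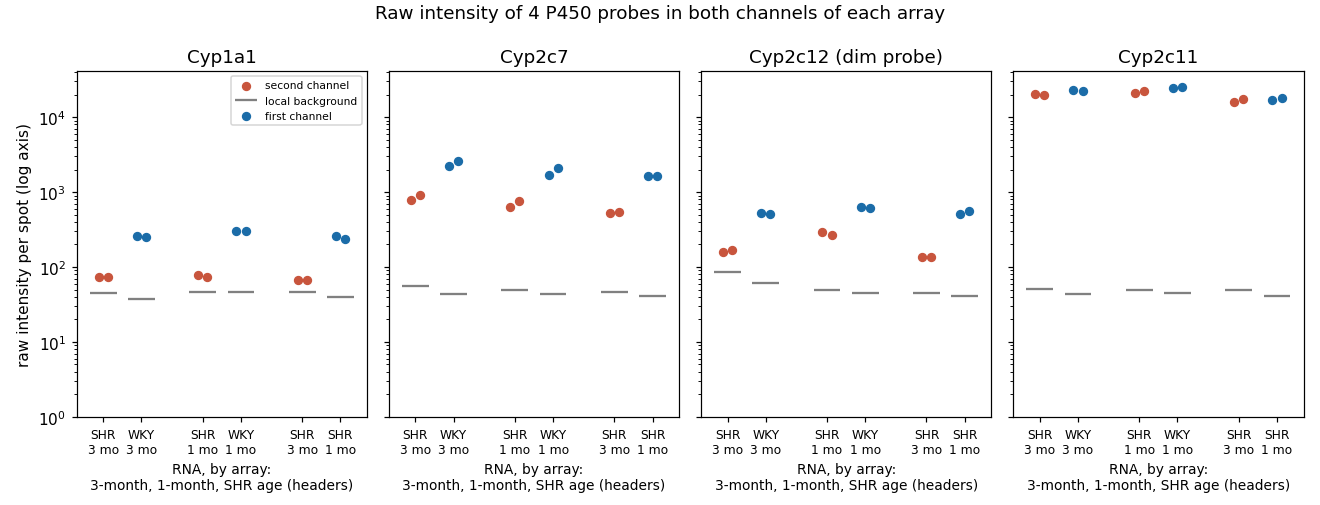
Raw intensity per spot (vertical log axis) of the probes for Cyp1a1, Cyp2c7, Cyp2c12 (the dimmer probe) and Cyp2c11 in the second channel (red) and first channel (blue) of the 3-month, 1-month and SHR age arrays, with the mean local background as a grey line. Cyp2c7 read 845 in SHR and 2409 in WKY at 3 months, and Cyp2c11 read 20258 in SHR and 22811 in WKY. These readings are not normalised, and the second channel was dimmer on every array. After intensity-dependent normalisation the log2 ratios were −0.61 for Cyp2c7 and −0.09 for Cyp2c11.

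A pair of probes carried the name Cyp2c12, a female-predominant steroid hydroxylase, and they did not give the same ratios. The dimmer probe (NM_031572) read 157 and 169 in SHR at 3 months, against 532 and 513 in WKY, and 289 and 264 in SHR at 1 month, against 631 and 608 in WKY. For SHR alone it read 135 and 137 in SHR at 3 months, against 512 and 551 in SHR at 1 month. Its log2 ratio was −0.38 at 3 months (−0.84 without the spots of bright background), −0.24 at 1 month and −0.88 on the SHR age array. On this probe SHR at 1 month read 277 in the second channel of its strain array. It read 532 in the first channel that the header gives it on the SHR age array, and the part of the dye was not tested. The brighter probe (NM_012709) had log2 ratios of −0.20, −0.14 and −0.03 on the same arrays, which took the other sign under median centring, at 0.23, 0.63 and 0.68. The first is named by its accession in the RefSeq table and the other by its symbol on the array alone, and which transcript each detects was not tested. Both belong to the same family of similar sequences, so that cross-hybridisation among Cyp2c probes was not tested either.

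Of the male-predominant Cyp2c members, neither passed 1.5-fold on any array, although Cyp2c11 did so in the age comparison under median centring, at 0.59. Cyp2c11, the main steroid hydroxylase of adult male rat liver, read 20476 and 20040 in SHR at 3 months, against 22979 and 22643 in WKY, and 21049 and 22039 in SHR at 1 month, against 24771 and 25573 in WKY. Its log2 ratios of −0.09 and −0.22 took the other sign, 0.20 and 0.28, under median centring. In SHR it read 16137 and 17641 at 3 months, against 17110 and 18157 at 1 month, with a log2 ratio of 0.12. Cyp2c13, another steroid hydroxylase, read 1050 and 1166 in SHR at 3 months, against 1795 and 1946 in WKY, and 680 and 805 in SHR at 1 month, against 1449 and 1637 in WKY. The log2 ratio of Cyp2c13 was −0.01 at 3 months and −0.33 at 1 month, the lowest after Cyp2c7 among the Cyp2c probes at 1 month, and −0.08 on the SHR age array. Among the other Cyp2c probes, Cyp2c23, an arachidonic acid epoxygenase, had log2 ratios of −0.21, 0.02 and −0.16. Cyp2c22 had −0.00 (0.03 without the spots of bright background), −0.12 and −0.04. The probe that the array names Cyp2c37 had −0.18 (−0.23 without those spots), 0.06 and −0.36. The 8 Cyp2c probes together had medians of −0.19, −0.18 and −0.12. Of them 8, 6 and 7 were below 0, beside the 53.0%, 52.4% and 51.3% of all probes given above. These counts depended on the processing. With median centring 5 of the 8 were below 0 on each array and 3 above. Of all probes, 2850 of 5651, 2839 of 5684 and 2844 of 5686 were then below 0. Without the spots of bright background 7 of the 8 were below 0 at 3 months, beside 2902 of 5577 probes. The probe that changed sign there was Cyp2c22, and 2 of the 8 probes carried the name Cyp2c12.

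Cyp2a1, a female-predominant testosterone hydroxylase, read 227 and 219 in SHR at 3 months, against 574 and 531 in WKY, and 413 and 318 in SHR at 1 month, against 935 and 715 in WKY. In the age comparison it read 161 and 218 in SHR at 3 months, against 435 and 562 in SHR at 1 month. Its log2 ratios of −0.16 at 3 months (−0.29 without the spots of bright background), −0.30 at 1 month and −0.34 on the SHR age array did not pass 1.5-fold. Cyp2a2, its male-predominant neighbour, had log2 ratios of 0.05, 0.09 and 0.02. Cyp2a3, known mainly from nose and lung, had log2 ratios of −0.18 (−0.36 without the spots of bright background), −0.23 and −0.47. In the RefSeq order of the P450 genes on the array, Cyp2g1 lay between the Cyp2b genes and the Cyp2a genes. Cyp2b21, of the 2B subfamily of drug-oxidising enzymes, read 3172 and 3082 in SHR at 3 months, against 5683 and 5617 in WKY, and 3631 and 4115 in SHR at 1 month, against 6451 and 7182 in WKY. Between the SHR ages it read 1739 and 1813 in SHR at 3 months, against 4740 and 4655 in SHR at 1 month. Its log2 ratios were −0.25 (also −0.25 without the spots of bright background), −0.35 and −0.72. Cyp2b12 had log2 ratios of −0.20 (−0.38 without those spots), −0.31 and −0.54, and Cyp2b3 had 0.05, −0.14 and 0.13.

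The 2D probes ran in several directions. P450 IID3, a probe without a current symbol that the array describes as a 2D enzyme, read 2270 and 2539 in SHR at 3 months, against 4590 and 4884 in WKY, and 3960 and 4025 in SHR at 1 month, against 5857 and 5772 in WKY. For SHR alone it read 1401 and 1507 in SHR at 3 months, against 4128 and 4505 in SHR at 1 month. Its log2 ratio was −0.32 at 3 months, −0.07 at 1 month and −0.87 on the SHR age array. Cyp2d4, the 2D enzyme known from brain, had the highest P450 ratio at 3 months, with raw intensities of 1602 and 1668 in SHR, against 1827 and 2016 in WKY, and a log2 ratio of 0.39. Its log2 ratio was 0.19 at 1 month and −0.11 on the SHR age array. Cyp2d2, a debrisoquine-oxidising enzyme, had −0.01, 0.05 and 0.34. In the 3A subfamily, which oxidises many drugs and steroids, the male-predominant Cyp3a2 had log2 ratios of −0.25, −0.11 and −0.40, which took the other sign under median centring, at 0.07, 0.43 and 0.07, and Cyp3a18 had −0.31, −0.23 and −0.22. Cyp3a9 had 0.23, 0.07 and 0.38, the last being −0.38 if the direction of that array is turned. Cyp2e1, the ethanol-oxidising enzyme, had −0.16, 0.01 and −0.33, and the epoxygenase Cyp2j4 had −0.32, −0.03 and −0.04. Cyp2g1, known from olfactory mucosa, had log2 ratios of 0.07, 0.11 and −0.24. The Cyp2t1 probe, the CYP2J3P1 pseudogene probe and the expressed sequence tag resembling 3A9 lay between −0.17 and 0.08 on every array, and the tag at −0.20 at 3 months without the spots of bright background. Averaged over spots, Cyp2f4 and Cyp3a23-3a1 read close to local background in both channels, between 47.0 and 64.1, with log2 ratios between 0.07 and 0.11.

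**Figure D3:**
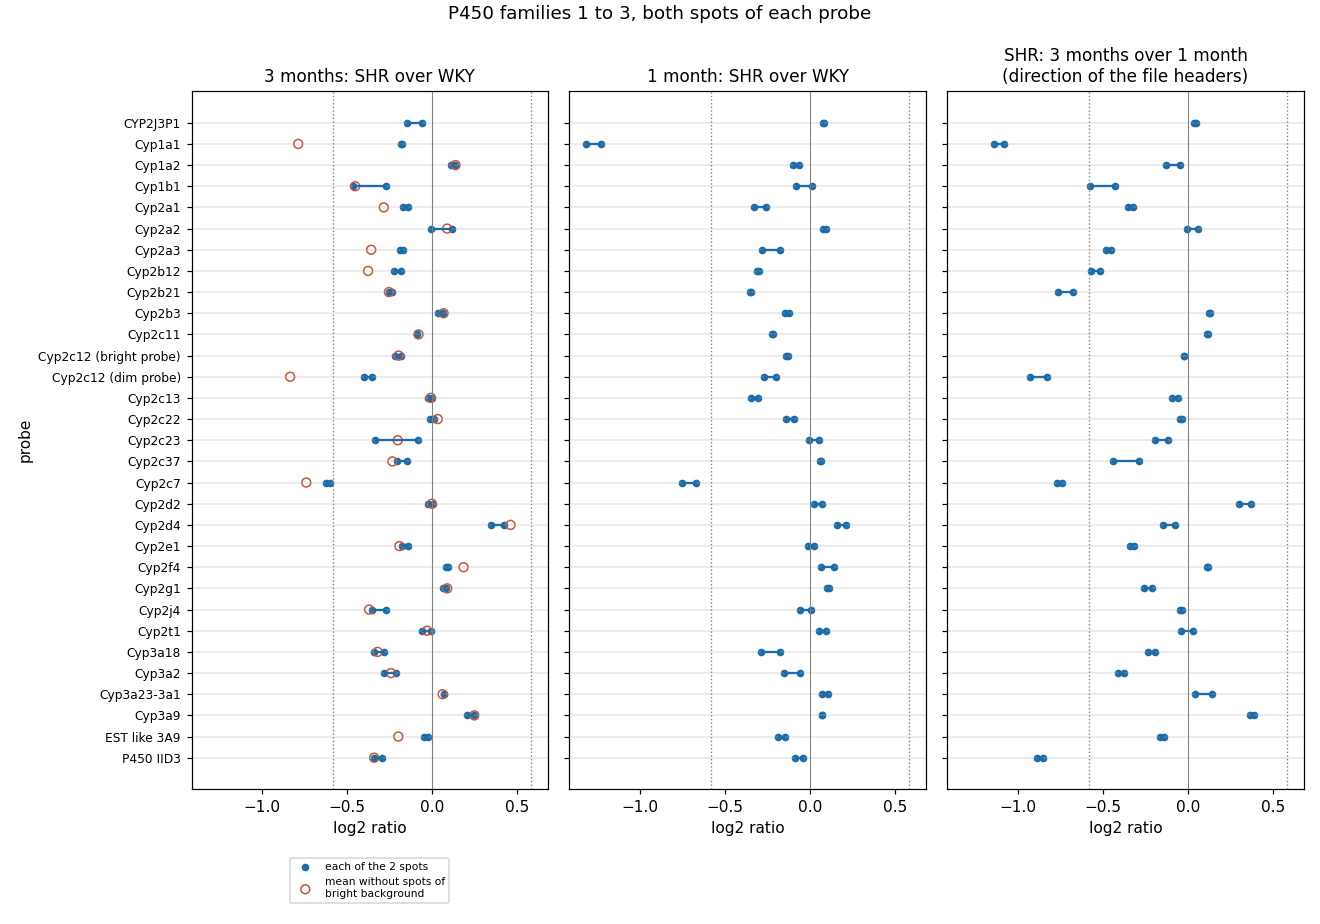
Log2 ratio (horizontal axis) of each probe of families 1 to 3 (rows) on the 3-month, 1-month and SHR age arrays; filled points are the 2 spots, open circles are the 3-month mean without spots of bright background and dotted lines mark 1.5-fold. Cyp2c7 lies left of the lower dotted line on all 3 arrays, and the open circle of Cyp1a1 lies at −0.79, against −0.18 with all spots.

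In family 4, Cyp4b1, which hydroxylates short fatty acids and activates some toxins mainly outside the liver, had a log2 ratio below 0 at 3 months and above 0 at 1 month. At 3 months it read 164 and 167 in SHR, against 360 and 405 in WKY. At 1 month it read 232 and 228 in SHR, against 349 and 370 in WKY. In the age comparison it read 142 and 139 in SHR at 3 months, against 510 and 482 in SHR at 1 month. The log2 ratios were −0.10 at 3 months (−0.20 without the spots of bright background), 0.29 at 1 month and −0.72 on the SHR age array. Under median centring the strain ratios took the other signs, 0.09 and −0.13. For Cyp4b1 too, SHR at 1 month read 230 in the second channel and 496 in the header's first channel. The part of the dye was not tested. P450 IVB2, described on the array as an isozyme of the same subfamily, had −0.19, −0.06 and −0.39. The Cyp4f enzymes, which inactivate leukotrienes, had a subfamily median of 0.12, 0.05 and 0.11 over 4 probes, which stayed above 0 under median centring. Of these, Cyp4f4 had log2 ratios of 0.22, 0.25 and −0.26, Cyp4f1 had 0.15, 0.06 and 0.09, and Cyp4f5 had 0.02, −0.25 and 0.35. Cyp4f6 read at most 79.9 in either channel as the mean of its spots, close to background. The orphan enzyme Cyp4x1 had log2 ratios of 0.06, 0.30 and 0.31. Of the fatty acid hydroxylases of the 4A subfamily, Cyp4a8 had −0.07, −0.18 and −0.13 and P450 IVA3 had −0.24, −0.06 and −0.18.

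Of the bile acid and sterol enzymes, 0 passed 1.5-fold on any array under the intensity-dependent normalisation. Of all probes, 1.49%, 2.41% and 5.42% were lower and 0.584%, 0.194% and 2.06% higher, on the 3-month, 1-month and SHR age array in turn. For so few genes a count of 0 is near those shares. Cyp7a1, the rate-limiting enzyme of bile acid synthesis, read 21995 and 22506 in SHR at 3 months, against 21649 and 22967 in WKY, with log2 ratios of 0.05 at 3 months, −0.12 at 1 month and 0.01 on the SHR age array. Cyp8b1, which directs synthesis to cholic acid, had −0.02, −0.10 and −0.13, and the oxysterol hydroxylase Cyp7b1 had −0.12, 0.00 and −0.25. Cyp51, which demethylates lanosterol on the way to cholesterol, had −0.03, −0.17 and −0.06. With median centring Cyp51 took the other sign and passed 1.5-fold, at 0.74, 0.59 and 0.91. Of all probes, 7.68%, 10.5% and 15.4% were then at least 1.5-fold higher on the same arrays. Under that centring Cyp7b1 was at 0.52, 0.62 and 0.52, past 1.5-fold at 1 month, and Cyp7a1 at 0.37, 0.31 and 0.49. Cyp26a1, which clears retinoic acid, had positive strain ratios at both ages. It read 10310 and 8955 in SHR at 3 months, against 10890 and 9298 in WKY, with log2 ratios of 0.32 at 3 months, 0.14 at 1 month and 0.32 on the SHR age array (−0.32 with its direction turned). It lay above 0 in every processing tried on the strain arrays, between 0.28 and 0.36 at 3 months and between 0.04 and 0.34 at 1 month. Cyp27b1, which activates vitamin D, read at most 54.3 in either channel as the mean of its spots and rests on 1 spot at 1 month.

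Probes for the steroid hormone enzymes of adrenal and gonad were above background in liver RNA in both channels of all arrays, from Cyp11b1, Cyp11b2 and Cyp11b3 to Cyp17a1 and Cyp21a1. Of the adrenal and gonad markers that are not P450 genes, 2 of 3 at 3 months and 3 of 3 on the other arrays were above background too, with medians of −0.16, 0.08 and −0.09. Their part was not tested. Cyp21a1, a steroid hydroxylase needed for corticosteroids, read 5902 and 6267 in SHR at 3 months, against 10269 and 10706 in WKY, and 4699 and 4676 in SHR at 1 month, against 8719 and 8156 in WKY. Its log2 ratios were −0.32, −0.42 and −0.36. Cyp19a1, the aromatase that makes oestrogens, read 232 and 212 in SHR at 3 months, against 629 and 566 in WKY, and 425 and 393 in SHR at 1 month, against 847 and 776 in WKY. In SHR it read 178 and 185 at 3 months, against 583 and 649 at 1 month. Its log2 ratio was −0.22 at 3 months (−0.40 without the spots of bright background), −0.13 at 1 month and −0.74 on the SHR age array. Cyp11a1, which starts steroid synthesis from cholesterol, had log2 ratios of −0.26 (−0.38 without the spots of bright background), −0.30 and −0.44. Cyp17a1, needed for androgens, had −0.02, −0.29 and −0.22. Of the enzymes of the last steps to corticosterone and aldosterone, Cyp11b1 had 0.16, −0.08 and 0.36, Cyp11b2 had −0.04, −0.06 and −0.17, Cyp11b3 had −0.16, −0.06 and −0.11, and the cluster probe Cyp11b@ had −0.03, −0.02 and 0.20. The 2 unplaced probes, P450CMF1b and a P450-like protein, lay between −0.16 and 0.12.

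**Figure D4:**
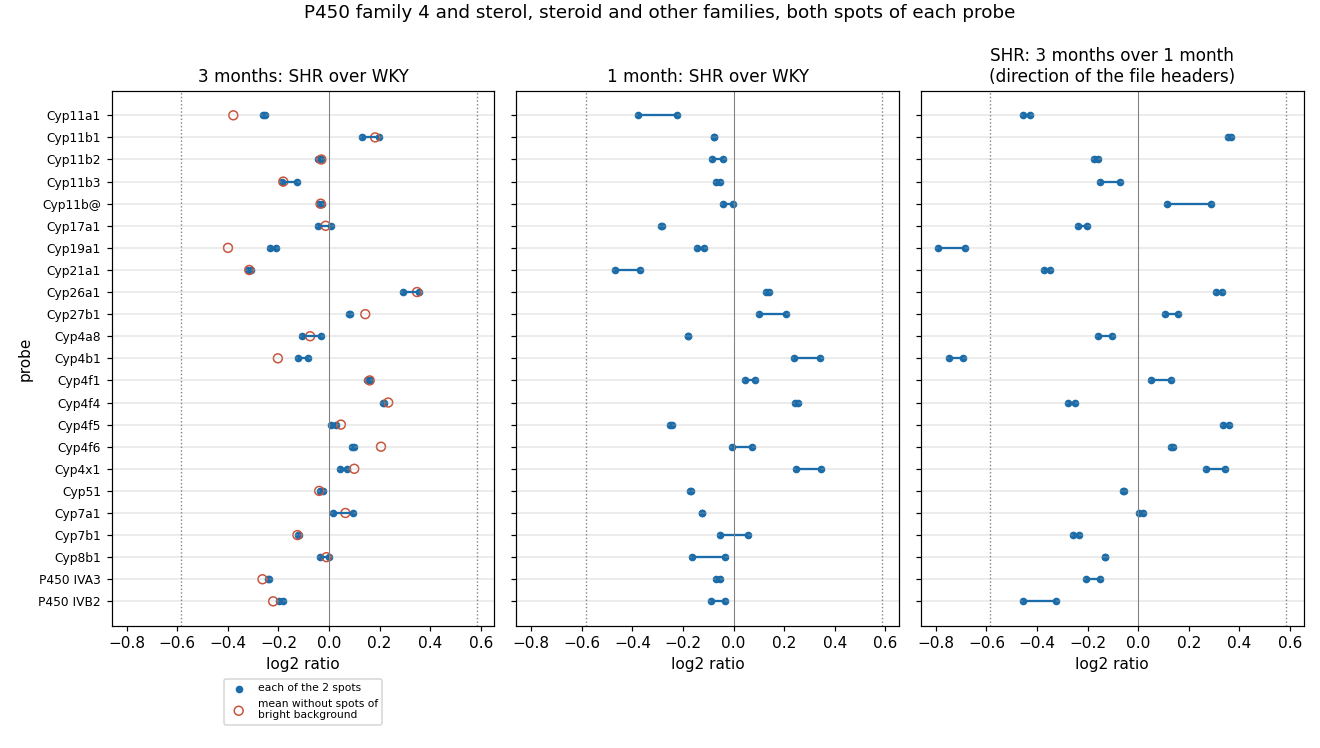
Log2 ratio (horizontal axis) of each probe of family 4 and of the sterol, steroid and other families (rows) on the 3-month, 1-month and SHR age arrays; filled points are the 2 spots, open circles are the 3-month mean without spots of bright background and dotted lines mark 1.5-fold. On the SHR age array Cyp4b1 lies at −0.72 and Cyp19a1 at −0.74.

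How far the strain ratio moved between the ages was taken as the 3-month log2 ratio minus the 1-month log2 ratio, in which a dye effect of equal size on both arrays cancels. Of the 56 P450 probes, 0 were at least 1.5-fold lower, beside 1.12% of 5646 probes, and 1, Cyp1a1, was at least 1.5-fold higher, beside 1.70%. The difference for Cyp1a1 was 1.10, but 0.49 without the spots of bright background and 0.32 with plain subtraction. Without those spots 0 of 55 were at least 1.5-fold higher, beside 0.413%, and 1, the dimmer Cyp2c12 probe, was lower, beside 1.62%, with a difference of −0.60. For Cyp2c7 the difference was 0.10, and −0.03 without the spots of bright background.

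Genes that regulate or serve P450 enzymes were taken from lists of textbook members. Of 24 printed regulators, 1 was at least 1.5-fold higher in SHR at each age, namely Cish, a suppressor of growth hormone signalling, beside 0.584% of all probes at 3 months and 0.194% at 1 month, and 0 were lower. Cish read 30651 in SHR at 3 months, against 14244 in WKY, and 38531 in SHR at 1 month, against 19969 in WKY, with log2 ratios of 1.18 and 0.84. Between the SHR ages it read 30197 in SHR at 3 months, against 18090 in SHR at 1 month, with a log2 ratio of 0.72. The oxysterol receptor Nr1h3 had a log2 ratio of 0.61 on that array, the other regulator past 1.5-fold there, which made 2 of 24 beside 2.06% of all probes. Onecut1 had −0.09, 0.03 and −0.26, Stat5b, the main mediator of growth hormone pulses, had 0.02, −0.11 and 0.10, and the aryl hydrocarbon receptor Ahr had 0.26, 0.20 and 0.16. Of the electron partners, the membrane haem protein Pgrmc1 had a log2 ratio of −0.62 at 3 months, where it lay on spots of bright background, and −0.24 and −0.25 on the other arrays. The reductase Por, which feeds electrons to all microsomal P450 enzymes, had log2 ratios of 0.24, 0.16 and 0.01. A looser list kept for the aryl hydrocarbon receptor battery had 6 printed genes, namely Nqo1, Ugt1a6, Gsta2, Aldh3a1, Aldh9a1 and Nfe2l2. Of these, 5 had a ratio at 3 months. Among them and 14 printed PPAR-alpha targets, 0 passed 1.5-fold on any array. Of all probes, 1.49%, 2.41% and 5.42% were lower and 0.584%, 0.194% and 2.06% higher (3-month, 1-month and SHR age array in turn). The battery gene Nqo1 was at background on every spot at 3 months and had no ratio there.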

How the data were processed

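Total RNA of rat liver was hybridised to 3 arrays with 2 colours, per the labels' protocols. The authors deposited, per the file headers, the raw intensity and local background of both channels for each of 12288 spots, net intensities, their ratio of first over second channel after the authors' own scaling, and a log2 value. Sources used here do not name the software that quantified the spots. Intensities were corrected with normexp (offset 50) and normalised by loess (span 0.3) within each array in limma 3.58.1 (R 4.3.3), with empty spots at weight 0. Spots that exceeded their background by 2 SD in either channel were averaged by accession. Tables and figures were made with Python 3.11.15, numpy 2.4.6, pandas 2.3.3 and matplotlib 3.10.9. The code was tested on simulated data. With 1 array per comparison, probes were described by 1.5-fold and 2-fold counts, without tests.

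Members were named by accession (28), current symbol (9), synonym (4) or description (6) against RefSeq GRCr8, 2 kept the array's symbol and 7 had none. Named with values were the marker genes, all probes past 1.5-fold, the 3 highest and lowest of each family group on each array, and genes with several probes. Members and lists were chosen with earlier results of these data known. The counts for the list of electron partners and haem synthesis genes are not reported here.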

Additional observations from a re-analysis of the deposited data

Results flagged for a closer look

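Cyp4b1 was singled out because its SHR over WKY log2 ratios had opposite signs at the 2 ages, −0.10 at 3 months and 0.29 at 1 month on both spots, a difference of −0.393. Without the spots of bright background the difference was −0.49. The ratios were 0.086 and −0.127 with median centring, and 0.228 and 0.445 in the authors' deposited table. The brighter P450 IVB2 probe, described on the array as of the same subfamily, lay below 0 at both ages, at −0.19 and −0.06. Whether both probes read the same transcript was not tested. With 1 array per age the difference for Cyp4b1 was not tested.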

How the results depend on the processing

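No paired analysis was possible because each comparison has 1 array and no replicates. The limits are 1 hybridisation per comparison, no dye swap and an unsettled direction on the SHR age array, and dim probes such as Cyp1a1 depend most on the background correction. Of 192 alternative values for the counts and family medians, 153 stayed within the spot SD or 1.5 times the count, and 39 did not. Of 340 for single probes, 232 stayed and 108 did not, and 7 of these were labelled as reversed. That label does not count every change of sign over the P450 probes. Under median centring alone 13 of 56 took the other sign at 3 months, 13 at 1 month and 9 on the SHR age array. Apart from the turned direction, the cause was not tested. For the counts that follow, shares of all probes without bright spots and with median centring on each array stand above. No share is given for plain subtraction, no background correction, offset 0, the authors' table, or the change with age under median centring. Those counts cannot be read as particular to P450 probes. P450 probes at least 1.5-fold lower at 3 months numbered 4 with plain subtraction, 3 without background correction, 3 without bright spots and 5 in the authors' deposited table. Higher at 3 months were 2 with subtraction and 2 with median centring. Lower at 1 month were 7 with median centring. Higher at 1 month were 1 with normexp offset 0, 1 with subtraction, 5 with median centring and 1 in the authors' deposited table. On the SHR age array 13 were lower and 7 higher with median centring, 1 was higher with offset 0, and 0 were lower and 7 higher with the direction turned. Probes whose strain ratio was at least 1.5-fold lower at 3 months than at 1 month numbered 1 with offset 0, 4 with subtraction, 1 without background correction, 1 without bright spots and 2 in the authors' deposited table, and those higher numbered 0 without correction, 0 without bright spots and 6 with median centring. The median of families 1 to 3 was −0.090 with loess within subgrids and −0.089 in the authors' deposited table at 3 months, −0.146 with median centring at 1 month, and −0.272 with median centring and −0.090 in the authors' deposited table on the SHR age array. The median of family 4 was 0.094 with subtraction at 3 months, −0.099 with median centring at 1 month, and on the SHR age array 0.030 with median centring, −0.211 with subgrid loess and −0.269 in the authors' deposited table. The median of sterol, steroid and other families was −0.168 with median centring at 3 months and −0.150 in the authors' deposited table at 1 month. With the age array's direction turned, the group medians were 0.153, 0.130 and 0.121, and the ratios were 1.112 for Cyp1a1, 0.883 for the dimmer Cyp2c12 probe, 0.872 for P450 IID3, 0.756 for Cyp2c7, 0.737 for Cyp19a1, 0.722 for Cyp2b21 and 0.720 for Cyp4b1.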
